A study of Mus musculus with 4 samples.

Results

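Genes of the primitive red blood cell were followed in cultured mouse forelimbs: the embryonic globin genes Hba-x, Hbb-y and Hbb-bh1, the adult alpha-globin gene Hba-a1, the haem enzyme gene Alas2, the anion exchanger gene Slc4a1, the erythropoietin receptor gene Epor and the transcription factor genes Klf1 and Gata1. They were chosen by name, 9 in all, and 8 of them were matched among the 17568 genes of the expression table. Hba-a1 was not analysed here. All 8 reached the mean of 1 CPM (normalized counts per 1000000 reads) required for testing, as did 13568 genes in all. Forelimbs were taken at E10.25, with 31 to 34 somites, from embryos of the Swiss Webster stock, which were wild-type, and were cultured either in control medium or with cyclopamine, a plant alkaloid that blocks Smoothened and thereby Hedgehog signalling. Each condition had 2 RNA sequencing libraries, made from whole limb buds on the SOLiD platform. The submitters call them biological replicates, but nothing ties a library to particular embryos or cultures. The p-values therefore cover no more than the spread between these libraries. The labels used here do not say how much cyclopamine was given, in what vehicle and for how long, and how many limb buds made up a library.

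Primitive red cells arise in the yolk sac, enter the circulation at midgestation and finish maturing in the bloodstream, so a limb bud of this stage holds them inside its vessels. Their haemoglobin pairs zeta-like chains from Hba-x, or alpha chains from Hba-a1, with embryonic beta-like chains from Hbb-y and Hbb-bh1. As the cells mature, Hbb-bh1 gives way to Hbb-y. GATA1 and KLF1 bind the globin genes and many other red cell genes, EPOR carries the survival signal of erythropoietin, ALAS2 starts haem synthesis in red cells, and SLC4A1, known as band 3, is a major red cell membrane protein. In bulk tissue, fewer red cells and less RNA per red cell cannot be told apart.

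The genes lie on several chromosomes, with the zeta-globin gene and the embryonic beta-like genes in separate clusters. In the GENCODE vM21 annotation of GRCm38, the genome called mm10, Hba-x spans chromosome 11, 32276400 to 32278116, and Hbb-y and Hbb-bh1 span chromosome 7, 103851749 to 103853216 and 103841637 to 103843164. Alas2 spans chromosome X, 150547375 to 150570638. The 250 bases before the RefSeq start of 3 genes are printed here, because Hba-x and Hbb-y had almost the same level in every library despite lying on different chromosomes, and because Alas2 had its highest and lowest values in the same libraries as these globins. Sequences are from RefSeq on GRCm38.p6, written 5′ to 3′ on the strand of the gene. They cover chr11:32276350-32276599 on the plus strand for Hba-x, chr7:103853208-103853457 on the minus strand for Hbb-y and chrX:150547167-150547416 on the plus strand for Alas2. Capitals mark every match, on either strand, to the GATA-factor core GATA, its longer form AGATAA, the KLF-type box CACCC, the CCAAT box and the TATA-like ATAAA.
Hba-x: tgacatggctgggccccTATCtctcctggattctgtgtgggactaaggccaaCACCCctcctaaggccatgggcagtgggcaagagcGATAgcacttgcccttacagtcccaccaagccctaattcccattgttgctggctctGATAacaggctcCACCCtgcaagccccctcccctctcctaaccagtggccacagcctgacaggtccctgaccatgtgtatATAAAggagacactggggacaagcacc
Hbb-y: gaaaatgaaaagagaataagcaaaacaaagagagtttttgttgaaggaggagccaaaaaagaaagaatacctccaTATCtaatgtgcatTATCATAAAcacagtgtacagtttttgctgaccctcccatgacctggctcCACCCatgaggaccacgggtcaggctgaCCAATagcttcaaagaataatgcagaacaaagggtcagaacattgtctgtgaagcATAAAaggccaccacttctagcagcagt
Alas2: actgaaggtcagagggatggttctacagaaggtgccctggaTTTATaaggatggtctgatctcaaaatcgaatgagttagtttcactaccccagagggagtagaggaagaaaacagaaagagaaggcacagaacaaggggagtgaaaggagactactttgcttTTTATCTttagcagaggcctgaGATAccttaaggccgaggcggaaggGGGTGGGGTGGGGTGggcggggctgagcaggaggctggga

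Promoter windows of 300 bases, 250 before and 50 after the start, were matched for 7 of the 9 genes; Hbb-bh1 and Slc4a1 were not matched. GATA was present in all 7 and CACCC in all 7, but these short letters are common: 57.9% and 57.5% of the 32851 windows in the RefSeq table held them. AGATAA, which contains GATA, was present in 2 of 7 windows (Alas2 and Epor) against 11.2% of all windows, and CCAAT in 3 of 7 against 37.4%. ATAAA was present in 3 of 7 windows against 40.0%. Its first base lay 27 bases before the start in Hba-x and 28 bases before it in Hbb-y. GENCODE annotates a start of Hba-x, Hbb-y and Alas2 within the printed stretch, upstream of the RefSeq start. A match describes the letters only.

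The embryonic globins were abundant in every library. Hba-x measured 524 and 234 CPM in control libraries 1 and 2, and 874 and 523 CPM in cyclopamine libraries 1 and 2. Hbb-y measured 508 and 252 CPM in control limbs against 875 and 509 CPM with cyclopamine. Hbb-bh1 measured 252 and 109 CPM in control limbs against 354 and 203 CPM with cyclopamine. For all 3 genes control 2 was lowest and cyclopamine 1 highest, with control 1 and cyclopamine 2 between them. Control 1 and cyclopamine 2 were nearly equal for Hba-x, where cyclopamine 2 had 0.998 times the level of control 1, and for Hbb-y, where the ratio was 1.0. Hbb-bh1 was lower in cyclopamine 2 than in control 1, at 0.808 times. Read depth was ample for these genes, from 1478 reads of Hbb-bh1 in control 2 to 11093 reads of Hbb-y in cyclopamine 1.

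**Figure D1:**
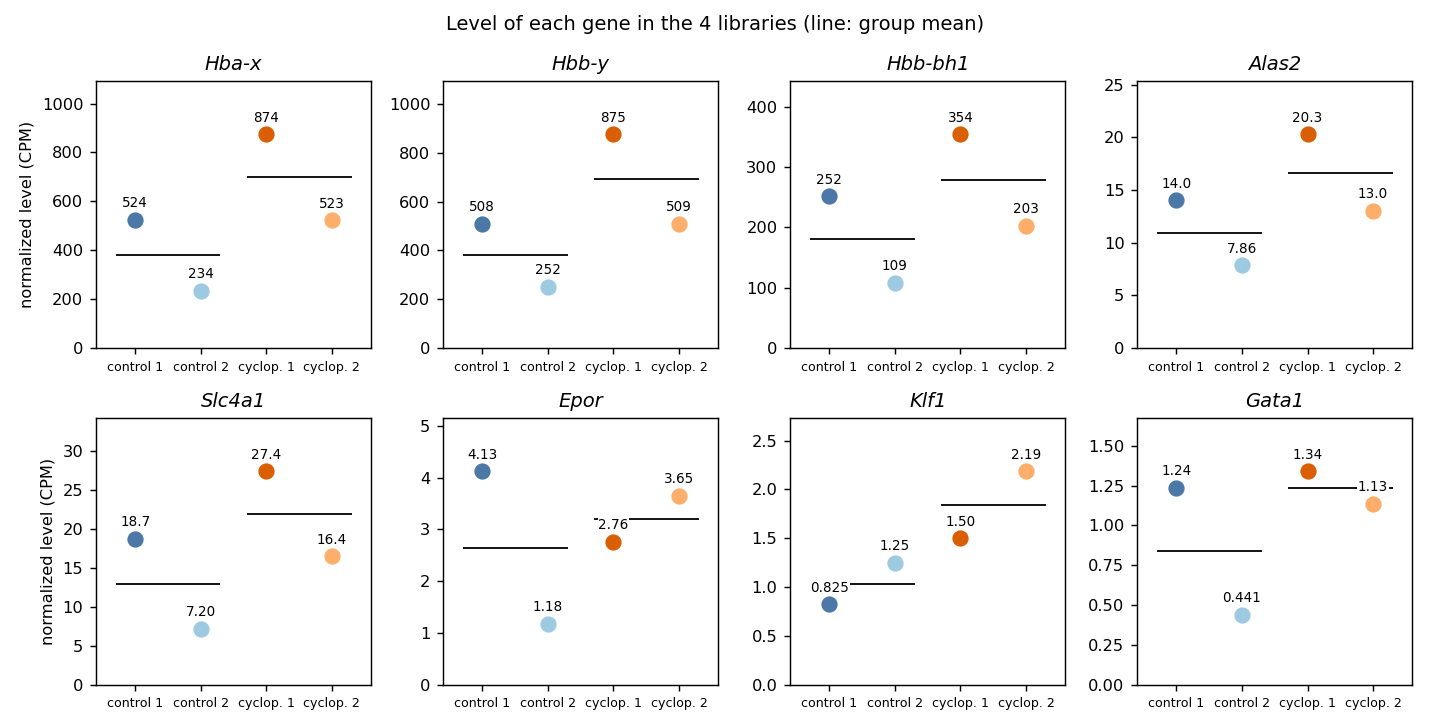
Normalized level in CPM (vertical axis, starting at 0) of 8 globin and erythroid genes in the 4 libraries, one point per library with its value, and a line at each group mean. Control 2 is lowest in 7 of the 8 genes and cyclopamine 1 highest in 6 of 8.

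The group means of the globins were higher in cyclopamine, but the libraries of a group also differed widely. Hba-x averaged 379 ± 205 CPM (SD, n = 2) in control and 698 ± 248 CPM (SD, n = 2) in cyclopamine, or 0.95 on the log2 scale (SE 0.30, 95% interval 0.32 to 1.58, limma adjusted p = 0.43). Hbb-y differed by a log2 fold change of 0.90 (SE 0.28, 95% interval 0.30 to 1.5, limma adjusted p = 0.434). Hbb-bh1 had one of 0.70 (SE 0.30, 95% interval 0.06 to 1.33, limma adjusted p = 0.793). Every fold change here was taken on log2(CPM + 0.5), and the intervals are not adjusted for the number of genes. The p-values are adjusted over all 13568 genes by the Benjamini-Hochberg method with a threshold of 0.05. For each gene limma draws the variance towards that of other genes at a like level. Where libraries of a group differ as widely as for these globins, SE and interval are narrower than the gene's own spread gives. None of the 3 globins passed. Hba-x and Hbb-bh1 had overlapping groups, and Hbb-y missed overlap only by the small gap between control 1 and cyclopamine 2.

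The excess of replicate 1 over replicate 2 within each condition was itself unusually large for abundant genes. Control 1 had 2.23 times the Hba-x level of control 2, 2.02 times its Hbb-y level and 2.32 times its Hbb-bh1 level. Among the 2450 genes averaging 100 CPM or more, these ratios ranked 3, 6 and 2 from the top. The ranking runs in this direction only, so genes as much higher in replicate 2 fall at its bottom. Cyclopamine 1 had 1.67, 1.72 and 1.74 times the levels of cyclopamine 2 for the same genes, which ranked 6, 4 and 2. From the lowest to the highest library, Hba-x differed 3.73-fold, Hbb-y 3.47-fold and Hbb-bh1 3.26-fold, which ranked 2, 4 and 5 in either direction.

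While their sum varied, the 3 globins kept nearly the same proportions. They summed to 1284 and 595 CPM in the controls and to 2103 and 1234 CPM in cyclopamine. Hba-x made up 40.8% and 39.4% of the reads of the 3 genes in the controls, and 41.5% and 42.3% in cyclopamine. Hbb-y made up 39.6% and 42.3% in the controls, and 41.6% and 41.2% in cyclopamine. Neither share moved by more than 3 percentage points across libraries in which the sum differed more than 3-fold. Hbb-bh1 made up 19.6% (95% exact binomial interval 18.9 to 20.3) and 18.3% (17.4 to 19.1) in the controls. In cyclopamine it made up 16.8% (16.4 to 17.3) and 16.5% (15.9 to 17.1). Both cyclopamine shares of Hbb-bh1 lay below both control shares.

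**Figure D2:**
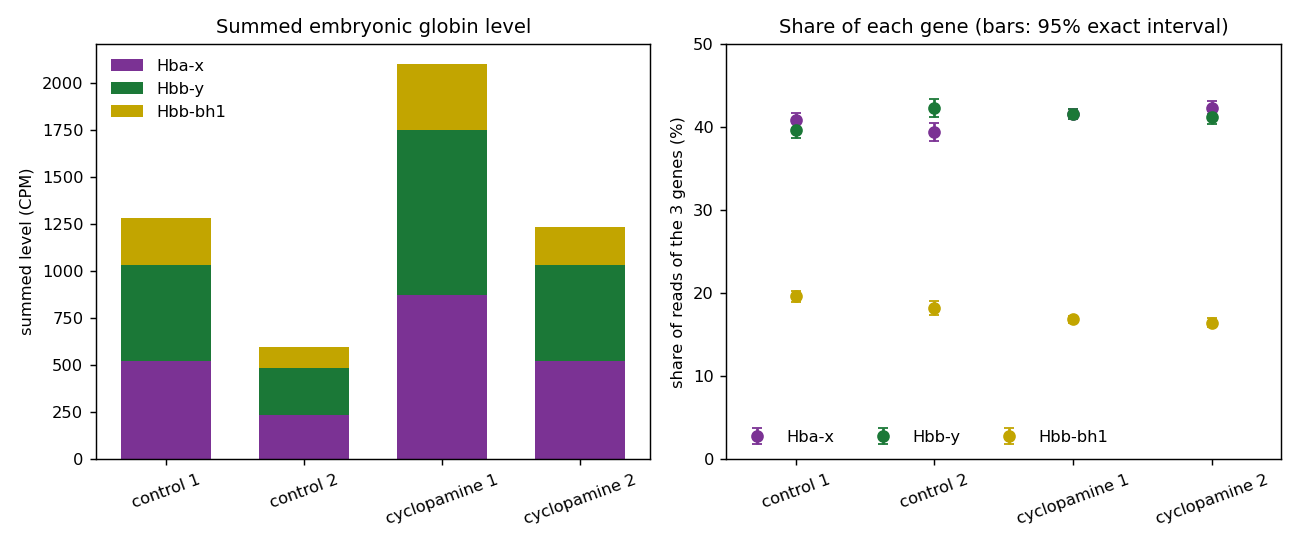
Left, summed level in CPM of Hba-x, Hbb-y and Hbb-bh1 in each library, stacked. Right, the share of each gene among the reads of the 3 genes in percent, with 95% exact binomial intervals that cover counting error only. The sum runs from 595 to 2103 CPM while the share of Hba-x stays between 39.4% and 42.3%.

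Since Hbb-bh1 gives way to Hbb-y as primitive cells mature, the ratio between them was also taken. There were 495 and 431 Hbb-bh1 reads per 1000 Hbb-y reads in the controls and 405 and 400 in cyclopamine. The intervals of the cyclopamine libraries were 391 to 419 and 381 to 419, that of control 1 was 472 to 520, and that of control 2, 405 to 458, overlapped both cyclopamine intervals. The mean log2 ratio was 0.20 lower in cyclopamine (log2 difference -0.20), and the groups did not overlap. With 2 libraries against 2, an exact two-sided permutation test cannot give less than p = 0.333, which is the value it gave here (adjusted p = 1.0 over the 7 ratios to Hbb-y that were tested). Intervals from reads cover counting error only, since no molecular identifiers are named in the sources used here and reads may be copies of a molecule. The 2 transcripts are 74.5% identical over 596 aligned bases with no shared run longer than 26 bases. The sources used here do not say how reads with several matches were handled.

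Alas2 and Slc4a1, which act in haem synthesis and in the red cell membrane, had the order of libraries seen for Hba-x and Hbb-bh1. Alas2, the first enzyme of haem synthesis in red cells, measured 14.0 and 7.86 CPM in control limbs against 20.3 and 13.0 CPM with cyclopamine. Slc4a1, on chromosome 11 at 102348824 to 102366203, measured 18.7 and 7.20 CPM in control limbs against 27.4 and 16.4 CPM with cyclopamine. In both genes the groups overlapped, with cyclopamine 2 below control 1. The log2 fold change was 0.61 for Alas2 (SE 0.28, 95% interval 0.01 to 1.20, limma adjusted p = 0.846). It was 0.84 for Slc4a1 (SE 0.34, 95% interval 0.12 to 1.56, limma adjusted p = 0.719). Neither passed the threshold. Exons of Alas2 overlap those of Apex2 and Mir3620 on the opposite strand, and the sources used here do not say whether counting used strand.

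Relative to Hbb-y, Slc4a1 varied little. It had 36.8 and 28.6 reads per 1000 Hbb-y reads in the controls and 31.3 and 32.3 in cyclopamine. The 95% exact intervals of all 4 libraries overlapped, running from 23.1 at the lowest bound to 42.6 at the highest. Alas2 had 27.6 and 31.2 reads per 1000 Hbb-y reads in the controls and 23.2 and 25.7 in cyclopamine. Both cyclopamine ratios of Alas2 lay below both control ratios, by a mean log2 difference of -0.27 (exact permutation p = 0.333, adjusted p = 1.0). The counting interval of cyclopamine 2, 21.8 to 30.0, overlapped those of both controls. How many of all genes have ratios to Hbb-y that separate the groups was not counted, so neither Alas2 nor Hbb-bh1 is shown to be unusual.

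Epor, Klf1 and Gata1 were scarce, and Epor and Klf1 did not share the order of libraries seen for Hba-x. Epor, on chromosome 9 at 21958897 to 21963506, measured 4.13 and 1.18 CPM in control limbs against 2.76 and 3.65 CPM with cyclopamine. Its highest and its lowest library were both controls, and its log2 fold change was 0.40 (SE 0.44, 95% interval -0.54 to 1.34, limma adjusted p = 1.0). Klf1, on chromosome 8 at 84901928 to 84905291, encodes the zinc finger factor that activates globin genes through CACCC boxes. It measured 0.825 and 1.25 CPM in control limbs against 1.5 and 2.19 CPM with cyclopamine. The 2 groups did not overlap, yet these values rest on 8, 17, 19 and 27 reads, and the log2 fold change of 0.61 had an SE of 0.43 (95% interval -0.32 to 1.53, limma adjusted p = 0.997). Gata1, on chromosome X at 7959260 to 7978071, measured 1.24 and 0.441 CPM in control limbs against 1.34 and 1.13 CPM with cyclopamine, from 6 to 17 reads a library. Its order of libraries was that of Hba-x, and its log2 fold change was 0.44 (SE 0.49, 95% interval -0.59 to 1.47, limma adjusted p = 1.0).

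Ratios to Hbb-y set Klf1 and Epor apart from Slc4a1 and Alas2. Klf1 had 1.62 and 4.96 reads per 1000 Hbb-y reads in the controls and 1.71 and 4.30 in cyclopamine. Control 1 (interval 0.701 to 3.20) and cyclopamine 1 (1.03 to 2.68) were low, and control 2 (2.88 to 7.95) and cyclopamine 2 (2.83 to 6.27) were high. Epor had 8.12 and 4.67 reads per 1000 Hbb-y reads in the controls and 3.16 and 7.17 in cyclopamine. Gata1 had 2.44 and 1.75 in the controls and 1.53 and 2.23 in cyclopamine, with all 4 intervals overlapping. For Klf1, Epor and Gata1 the groups overlapped in this ratio, and the exact permutation p was 0.667 or more (adjusted p = 1.0).

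**Figure D3:**
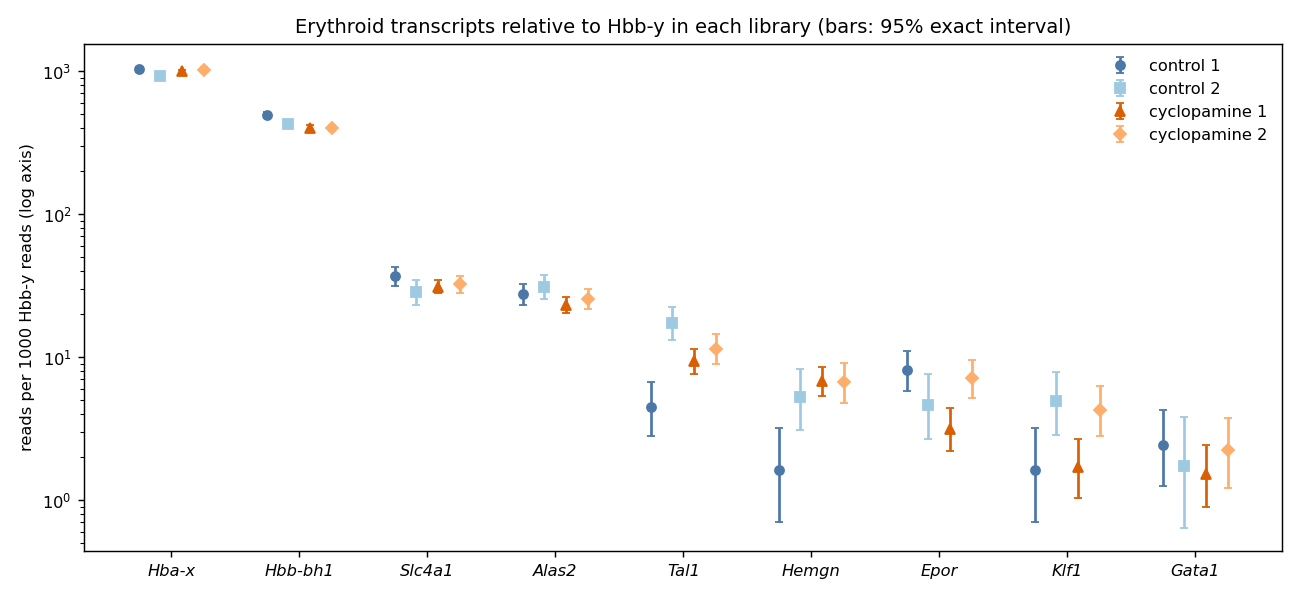
Reads of 9 erythroid genes per 1000 Hbb-y reads (vertical log axis) in each library, with 95% exact intervals for counting error only. The ratios of Hba-x, Hbb-bh1, Slc4a1 and Alas2 vary less than those of Klf1, from 1.62 to 4.96, and Tal1, from 4.47 to 17.5. For Hbb-bh1 and Alas2 both cyclopamine ratios lie below both control ratios (exact permutation p = 0.333 for each), and for Hemgn both lie above.

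Per kilobase of annotated exon, the levels fell into a clear order with a wide gap below the globins. Over the 4 libraries the mean was 847 CPM per kilobase for Hbb-y, 672 for Hba-x and 374 for Hbb-bh1. The order of Hbb-y and Hba-x depended on the gene model: with exons kept to the RefSeq bounds they had means of 866 and 896 CPM per kilobase. Alas2 followed with 6.78 CPM per kilobase and Slc4a1 with 3.83, and Alas2 was above Slc4a1 in each of the 4 libraries although their ranges over libraries overlapped. Epor (1.66), Klf1 (0.941) and Gata1 (0.546) came last. The order within this last group was not the same in every library: in control 2, Klf1 (0.816) was above Epor (0.667), and in control 1, Gata1 (0.651) was above Klf1 (0.539).

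Among all genes tested, limma placed 38 past the threshold, or 0.28%, of which 6 were higher in cyclopamine (0.0442%), and 0 of the 8 globin and erythroid genes. At an unadjusted p under 0.05, 5 of the 8 were higher in cyclopamine and 0 lower. Of all genes tested, 3.04% were higher and 5.82% differed in either direction at that level. These 5 were all lowest in control 2 and highest in cyclopamine 1, so they are not separate evidence. Without the intensity trend of limma, 1 of the 8 had such a p, where 837 of 13568 genes did. Without the expression filter 2 of the 8 had one, where 969 of 17568 genes did. On recovered reads, the quasi-likelihood test of edgeR called 0 of the 8 (3 at an unadjusted p under 0.05), where it called 0.295% of all genes (6.02% at that unadjusted level). DESeq2 called 0 of the 8 (0 at an unadjusted p under 0.05), where it called 0.383% (3.85% at that unadjusted level). All 8 log2 fold changes were above 0, with a median of 0.65 against 0.0045 for all genes tested, of which 51% were above 0. Both cyclopamine libraries exceeded both controls for 2 of the 8, Hbb-y and Klf1, against 16.8% of all genes tested. Control 2 was lowest and cyclopamine 1 highest for 6 of the 8, against 10.9% of all genes tested.

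Whether the globins passed differed with the library left out. Without control 1, limma called 4 of the 7 genes left above the filter (Gata1 was under it), Hba-x (1.53, adjusted p = 0.0054), Hbb-y (1.40, adjusted p = 0.013), Hbb-bh1 (1.3, adjusted p = 0.0115) and Slc4a1 (1.5, adjusted p = 0.0134), where 0.295% of all genes were called higher. Without cyclopamine 2 the same 4 genes were called among 8, at log2 fold changes of 1.32, 1.29, 1.10 and 1.20, where 0.207% of all genes were called higher. Without control 2, 0 of 8 were called, Hba-x was at 0.37, Hbb-y at 0.39, Hbb-bh1 at 0.09 and Slc4a1 at 0.18, and 0.176% of all genes were called higher. Without cyclopamine 1, 0 of 7 were called, Gata1 again being under the filter, Hba-x was at 0.58, Hbb-y at 0.51, Hbb-bh1 at 0.30 and Slc4a1 at 0.48, and 0.5% of all genes were called higher. Epor had a log2 fold change of 1.13 without control 1 and of -0.33 without control 2. In each of these fits the library left alone in its group was assumed to vary like the other group.

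**Figure D4:**
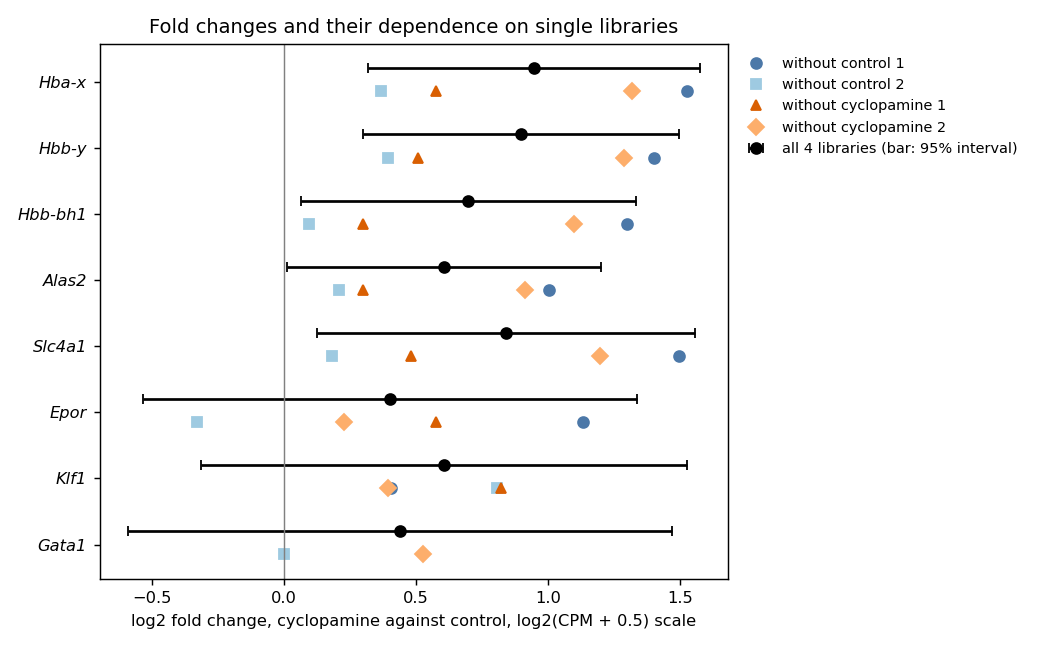
Log2 fold change of 8 genes, cyclopamine against control, on the log2(CPM + 0.5) scale. Black points with bars give the limma estimate and 95% interval from all 4 libraries, and coloured symbols give the estimate without 1 library; a symbol is missing where the gene was under the expression filter. Estimates without control 2 lie lowest and those without control 1 highest for Hba-x, Hbb-y, Hbb-bh1, Alas2 and Slc4a1.

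The authors' deposited table of the comparison marks 0 of the 8 at a false discovery rate under 0.05, where it marks 80 genes, 0.455% of the table. In the authors' deposited table the log2 fold change is 0.88 for Hba-x (false discovery rate 0.399), 0.86 for Hbb-y (0.348), 0.63 for Hbb-bh1 (0.969), 0.77 for Slc4a1 (0.969) and 0.62 for Alas2 (1.0). Among the red cell lists described here, the authors' deposited table has the smallest false discovery rate for Hemgn, at a log2 fold change of 2.09 (0.0156).

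Other globin genes were at trace levels. The adult beta-globin gene Hbb-bs, listed under the name Beta-s, measured 1.34 and 0.588 CPM in control limbs against 1.89 and 0.729 CPM with cyclopamine, from 8 to 24 reads a library, at 0.28 on the log2 scale (SE 0.50, limma adjusted p = 1.0). Hbq1b, a theta-like globin gene, measured 0.825, 0, 0.710 and 0.324 CPM in control 1, control 2, cyclopamine 1 and cyclopamine 2, and was not tested. The other 7 names of that list, Hba-a2 among them, were not matched. In the reference transcripts Hba-a1 and Hba-a2 are 99.8% identical over 538 aligned bases, whereas Hba-x is 66% identical to Hba-a1 over 423 aligned bases.

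Structural genes of the red cell membrane leaned upwards, with 0 past the threshold. Of 17 tested, 15 had a log2 fold change above 0 and 2 below, the median was 0.35, and both cyclopamine libraries exceeded both controls for 8, against 16.8% of all genes tested. Epb42, listed as Epb4.2 and encoding a protein that links band 3 to the skeleton, measured 0.929 and 0.514 CPM in control limbs against 2.76 and 1.78 CPM with cyclopamine (log2 fold change 1.18, SE 0.45). Kel, a blood group gene, measured 1.34 and 1.40 CPM against 3.31 and 2.75 CPM (0.92, SE 0.38), and Rhag measured 1.24 and 0.882 CPM against 3.16 and 1.62 CPM. Limma adjusted p was 0.66 for Epb4.2, 0.768 for Kel and 0.885 for Rhag.

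Haem synthesis and iron supply genes varied less. Of 20 tested, 13 lay above 0 and 7 below, 0 passed, and the median was 0.10. Most of these genes serve every cell. Alad, the enzyme after ALAS2, measured 39.2 and 28.7 CPM in control limbs against 42.5 and 51.7 CPM with cyclopamine (log2 fold change 0.48, SE 0.19, limma adjusted p = 0.683). Fech, which inserts iron to make haem, measured 34.7 and 26.3 CPM against 43.0 and 37.8 CPM (0.41, SE 0.18). Uros, another enzyme of the pathway, differed by 0.42 on the log2 scale (SE 0.24).

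Erythroid transcription factors lay on both sides of control. Of 16 tested, 10 lay above 0 and 6 below, 0 passed, and the median was 0.07. Tal1, needed for blood formation, measured 2.27 and 4.41 CPM in control limbs against 8.20 and 5.83 CPM with cyclopamine (log2 fold change 1.01, SE 0.34, limma adjusted p = 0.525). Its ratio to Hbb-y was lowest in control 1, at 4.47 reads per 1000, and highest in control 2, at 17.5. Zfpm1, which encodes the GATA1 partner FOG1, measured 11.6 and 10.8 CPM against 13.9 and 17.3 CPM (0.46, SE 0.22). In the other direction, Lmo2, an adaptor of the TAL1 complex that limb mesenchyme also expresses, measured 29.2 and 34.7 CPM against 19.6 and 15.6 CPM (-0.84, SE 0.20, adjusted p = 0.133 in limma), and the authors' deposited table marks it at a false discovery rate of 0.0362. Without cyclopamine 1 Lmo2 passed in limma (-1.0, adjusted p = 0.0169). Cbfa2t3, a corepressor gene, measured 11.6 and 19.0 CPM against 6.07 and 11.1 CPM (-0.81, SE 0.30), and passed in limma without cyclopamine 2 (-1.22, adjusted p = 0.0455).

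Among the 11 tested genes of a list of further erythroid genes, Hemgn had the largest difference on the log2(CPM + 0.5) scale. Hemgn, which encodes the nuclear protein hemogen of blood-forming cells, measured 0.825 and 1.32 CPM in control limbs against 6.0 and 3.4 CPM with cyclopamine, from 8, 18, 76 and 42 reads. Both cyclopamine libraries lay above both controls, by 1.7 on the log2 scale (SE 0.40, limma adjusted p = 0.14), and without cyclopamine 2 it passed (2.06, adjusted p = 0.0179). Its ratio to Hbb-y was 1.62 and 5.25 reads per 1000 in the controls and 6.85 and 6.69 in cyclopamine. Both cyclopamine ratios lay above both control ratios, and no permutation test was made of them. The lowest ratio was that of control 1, but its counting interval (0.701 to 3.20) overlapped that of control 2 (3.11 to 8.31). The interval of control 1 lay below those of cyclopamine 1 (5.39 to 8.58) and cyclopamine 2 (4.82 to 9.06), whereas that of control 2 overlapped both. Pklr, the red cell pyruvate kinase gene, measured 2.17 and 1.10 CPM against 4.10 and 2.75 CPM (0.91, SE 0.40), and Car2, a carbonic anhydrase gene, 15 and 11.8 CPM against 22.8 and 16.1 CPM (0.51, SE 0.23). Bpgm, whose enzyme makes the regulator of haemoglobin's oxygen affinity, differed by 0.30 on the log2 scale (SE 0.19). Of 11 tested in this list, 9 lay above 0 and 2 below, 0 passed, and the median was 0.15.

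Genes of erythropoietin and stem cell factor signalling, most of them not specific to red cells, lay close to control. Of 14 tested, 11 lay above 0 and 3 below, 0 passed, and the median was 0.08. Kitl, the stem cell factor gene, measured 19.7 and 38.5 CPM in control limbs against 32.6 and 38.2 CPM with cyclopamine (log2 fold change 0.35, SE 0.24), and the sign turned without control 1 (-0.12). Socs3, a feedback inhibitor gene of cytokine signalling, measured 9.29 and 9.70 CPM against 14.3 and 11.9 CPM (0.44, SE 0.23). Sh2b3 (0.33, SE 0.21) and Socs2 (-0.19, SE 0.16), which encode other dampers of cytokine signalling, did not pass either.

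Markers of other cell types were also compared between the libraries. The limb mesenchyme markers were all detected, and their 10 genes summed to between 2056 and 2505 CPM. Of these 10, 8 had a log2 fold change above 0 and 2 below, and 0 passed the threshold. Both cyclopamine libraries exceeded both controls for 5 of them, against 16.8% of all genes tested, and lay below both for 1. Megakaryocyte and platelet markers, from a blood lineage related to red cells, summed to 45.7 and 35.5 CPM in control limbs against 57.5 and 78.4 CPM with cyclopamine, with 9 of 9 tested above 0, 7 of them without overlap against 16.8% of all genes tested, and 0 past the threshold. Here cyclopamine 2 was highest, not cyclopamine 1 as for Hbb-y. Among them Itga2b measured 3.82 and 3.53 CPM against 6.63 and 9.80 CPM, and Rgs18 0.103 and 0.294 CPM against 1.66 and 2.84 CPM. Their log2 fold changes in limma were 1.04 (SE 0.30) and 1.95 (SE 0.49). The authors' deposited table marks Rgs18 at a log2 fold change of 3.35 (false discovery rate 0.00371), and its values rest on 1, 4, 21 and 35 reads. Endothelial markers summed to 539 and 508 CPM in control limbs against 581 and 630 CPM with cyclopamine, with a median log2 fold change of 0.25. Of 15 tested, 13 lay above 0 and 2 below, and 0 passed the threshold. Both cyclopamine libraries exceeded both controls for 7 of them, against 16.8% of all genes tested, so an upward lean was not particular to blood genes. Macrophage markers summed to 28.0 and 29.6 CPM against 21.6 and 35.5 CPM, with a median of -0.04 over 11 genes, 5 above 0 and 6 below. Neural markers summed to 76.1 CPM in control 1 and 113.5 CPM in control 2, against 40.4 and 49.4 CPM in cyclopamine. All 8 tested had a log2 fold change below 0, and 4 passed the threshold, where 32 of all 13568 genes tested were called lower. Ina was at 0 in both cyclopamine libraries, and Sox1, Sox2 and Neurod1 were at 0 in at least 1 library. The library lowest in globins was thus also highest in neural markers. Where the neural transcripts came from was not tested. The part of these other cells in the globin result was not tested.

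**Figure D5:**
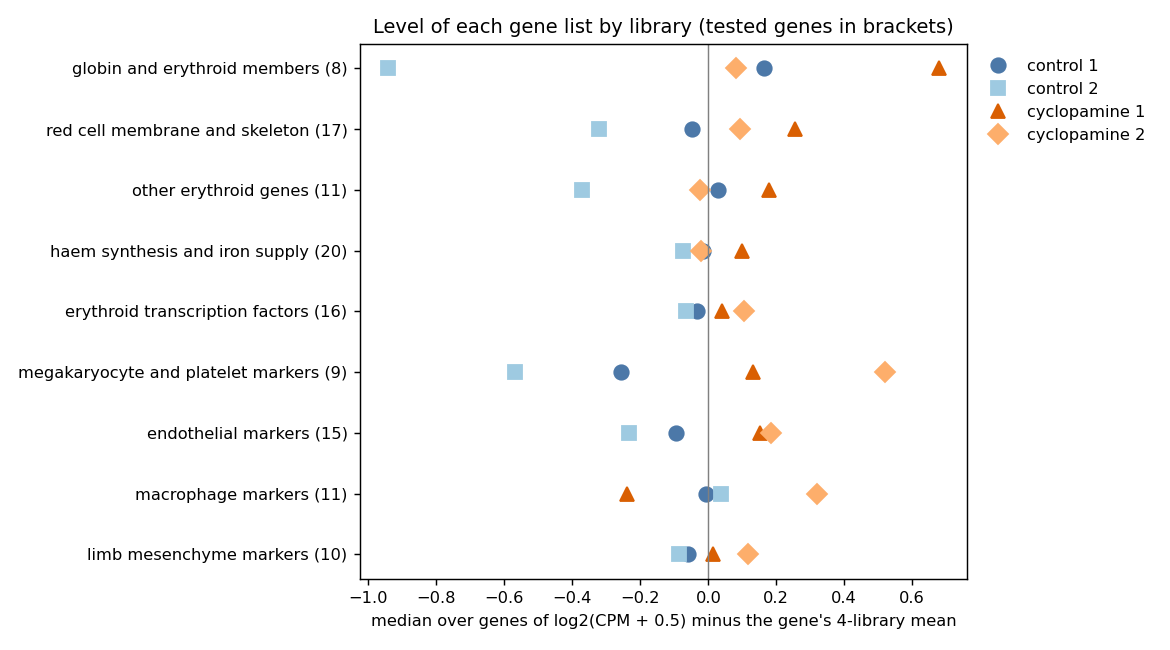
Median over the tested genes of each list of the log2(CPM + 0.5) level minus the gene's own mean over the 4 libraries (horizontal axis), one symbol per library. The 8 globin and erythroid genes spread from -0.94 in control 2 to 0.68 in cyclopamine 1, megakaryocyte and platelet markers are highest in cyclopamine 2, and limb mesenchyme markers lie close together.

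Slc4a1 lay near the globin pattern, and Klf1 lay far from it. The median profile of Hba-x, Hbb-y and Hbb-bh1, centred on the mean of the 4 libraries, was 0.11 and -0.95 in the controls and 0.84 and 0.06 in cyclopamine on the log2(CPM + 0.5) scale. By Euclidean distance to it over the 4 libraries, Slc4a1 ranked 4 among the 13565 other genes tested (distance 0.19 in log2 units), Alas2 ranked 26 (0.35), Gata1 180 (0.62), Epor 1120 (0.97) and Klf1 8029 (1.37). The nearest genes outside the 8 were Spata18 (0.15), C530005A16Rik (0.18), Chac1 (0.19), AA986860 (0.21), Cldn23 (0.21) and Lmna (0.22). With 4 libraries a short distance describes the order and size of 4 values only.

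As to the series as a whole, the values correspond to between 9779589 and 13555492 gene-assigned reads per library, of which the 8 genes took 0.131% and 0.0615% in the controls and 0.211% and 0.131% in cyclopamine. Gli1 and Ptch1, targets of Hedgehog signalling that check the treatment, passed in limma with log2 fold changes of -3.10 (SE 0.23) and -1.44 (SE 0.19). A chi-square test found both pairs of libraries apart beyond sampling noise, so neither pair looked like a single library deposited again; the test does not show that they came from separate embryos or cultures.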

How the data were processed

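RNA was sequenced from 4 libraries of cultured forelimbs, 2 per condition. The submitters' processing notes name edgeR 3.4.2, HTSeq 0.5.4p5, SAMtools, TopHat2 2.0.9, Bowtie and mm10, without roles. The authors deposited a normalized signal per gene, here called CPM, scaled to an effective library size. They also deposited a table of log2 fold changes, mean log2 CPM, p-values and false discovery rates, per the file headers. Every value was a whole multiple of the worth of a single read (100% of values, within 0.01 of a read), so reads were recovered. The floor of detection, 3 reads, is 0.22 to 0.31 CPM.

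Genes averaging 1 CPM or more were compared with limma 3.58.1 (R 4.3.3) after log2(CPM + 0.5), with its intensity trend, two-sided, Benjamini-Hochberg adjusted. The test was tried on simulated libraries, 2 against 2, at a dispersion of 0.02. With the right sign it called 90% of changes of 1 on the log2 scale and 100% of changes of 2. It also called 9 unchanged genes. The globins spread more between replicates than this setting allows, so the result does not carry over to them. Alternatives were edgeR 4.0.16 (quasi-likelihood) and DESeq2 1.42.0 on recovered reads, other pseudocounts, filters and scaling, no trend, a replicate block, and leaving out each library. Positions and exon lengths came from GENCODE vM21 and sequences from RefSeq on GRCm38.p6. Older symbols were matched through RefSeq synonyms.

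Named are the 8 genes, list members past the threshold or else up to 4 per list with the smallest p, all matched globins, Gli1, Ptch1 and the 6 genes nearest to the globins. The members and lists were chosen with earlier results of these data known. Some genes that the rule covers are left out.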

Additional observations from a re-analysis of the deposited data

How the results depend on the processing

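The count of 0 globin and erythroid genes past the threshold held under other pseudocounts, filters and scaling, without the intensity trend, and with edgeR and DESeq2. It was 4 with the replicate block and ranged from 0 to 4 when a library was left out. Over the 99 alternative values of the 8 log2 fold changes, 85 kept their direction and side of the threshold, 12 passed it and 2 turned sign. Both sign changes came without control 2, for Gata1 (-0.0029) and Epor (-0.33). Beta-s (-0.10) turned sign without control 2 too, Kitl (-0.12) without control 1 and Cx3cr1, a macrophage marker, (-0.025) without cyclopamine 2. Left-out ranges were 0.37 to 1.53 for Hba-x, 0.39 to 1.40 for Hbb-y, 0.092 to 1.3 for Hbb-bh1, 0.18 to 1.5 for Slc4a1, -0.33 to 1.13 for Epor, -0.0029 to 0.53 for Gata1, -0.10 to 0.76 for Beta-s, -0.025 to 0.42 for Cx3cr1 and -0.12 to 0.82 for Kitl.

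The labels tie replicate numbers to no litter or day. Replicate 1 deviated from its group mean alike in both groups only in part (r = 0.27 across 13568 genes, which are not independent). With the replicate block limma called Hba-x (0.95, adjusted p = 1.23e-14), Hbb-y (0.90, 4.46e-13), Hbb-bh1 (0.70, 3.68e-07) and Slc4a1 (0.84, 0.0015), among 351 genes (186 higher, 1.37% of those tested). This fit leaves each gene almost no residual spread of its own, so these p-values rest mainly on variance drawn from other genes. Replicate 1 lay above replicate 2 in both groups for 6 of the 8 globin and erythroid genes, and the block takes out that shared difference.

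Over all genes, 38 passed in the report's comparison, 2 without the expression filter, 20 with libraries rescaled to equal sums, 0 without the intensity trend (where 837 had unadjusted p under 0.05), and between 43 and 122 without a library. With a filter of 5 CPM, Epor, Klf1 and Gata1 were not tested. The cause of these shifts was not tested. Epor, Klf1 and Gata1 had 6 to 45 reads a library, so their values carry more counting error than those of the globins.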
